A study of Homo sapiens with 6 samples.

Results

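Genes that granulocytes and monocytes use to do their work were followed through H3K4 methylation in a leukaemia line with erythroid and megakaryocytic features. The list holds 38 protein-coding genes chosen by name, out of 19974 in the RefSeq table of GRCh38.p14, and it covers adhesion integrins, cytokine receptors, granule proteins, calgranulins, Fc receptors with their adaptors, the phagocyte oxidase, pattern and chemotactic receptors, inhibitory receptors, macrophage proteins and 2 nuclear proteins. A peak was counted for a gene when it overlapped the gene body with 5 kb flanks, here called the gene window. Chromatin immunoprecipitation followed by sequencing (ChIP-seq) had mapped 2 methylation states of histone H3 at lysine 4, the dimethylated (H3K4me2) and the trimethylated (H3K4me3), in K562, an established human line from blast crisis chronic myeloid leukaemia carrying BCR-ABL1. The cells had received a control short hairpin RNA (shControl) or one against STAU2 (shStau2), which encodes the RNA-binding protein Staufen 2. All libraries come from the same line, and the peak lists do not check the knockdown. There was 1 library for each mark and hairpin and 1 input for each hairpin, so no difference has a spread between replicates or a test, and in such bulk libraries a mark on more cells and more of it per cell cannot be told apart.

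The ChIP libraries held from 26221869 to 30744332 tags after duplicate removal. H3K4me2 could be compared on 16 whole chromosomes and chromosome 4 up to 185623897, because both of its lists end early, and 31 of the 38 genes, out of 14728 protein-coding genes, lie there. CD14, CSF1R, CSF2RA, NCF1, CYBB, TLR4 and KLF4 lie outside and have H3K4me3 values only. Fold enrichment is the authors' value for each peak, the summit pileup plus 1 over the local background plus 1. Its median over 15552 H3K4me3 peaks matched between the lists was 15 in the shControl list and 31.0 in the shStau2 list (ratio 2.07), and over 40029 matched H3K4me2 peaks it was 7.03 and 8.46 (ratio 1.2). A member is therefore read against these genome-wide ratios. The erythroid markers that define K562 carried H3K4me3 at 10 of 10 genes, beside 69.6% of all protein-coding genes under shControl and 75.1% under shStau2. They carried H3K4me2 at 9 of 9 genes in the compared region, beside 84.5% and 86.5% of all. Both counts were the same under both hairpins. HBG1 and HBG2 had identical strongest-peak values in each list and are counted separately.

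Granulocytes and monocytes arise from myeloid progenitors under transcription factors such as PU.1, the C/EBP family and RUNX1, while GATA1 and its partners drive the erythroid and megakaryocytic programme that K562 largely follows. H3K4me3 marks the starts of active genes and of most CpG-rich promoters whether active or not. H3K4me2 also marks enhancers and primed sites. Promoters poor in CpG usually carry H3K4me3 only in the cells that use them.

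The promoters of 30 members could be matched to RefSeq sequence of GRCh38.p14. The 250 bases before the annotated start are shown for 6 of them, with every CpG in capitals, because every member above a CpG ratio of 0.6 carried H3K4me3 at its start and most members below it did not. The first pair is rich in CpG and carried H3K4me3 at the start under both hairpins, TLR2 at chr4:153684030-153684279 on the plus strand and KLF4 at chr9:107489770-107490019 on the minus strand. The second pair is poor in CpG and nevertheless carried it, CD33 at chr19:51224830-51225079 and FCGR2A at chr1:161505207-161505456, both on the plus strand. The last pair is poor in CpG and carried neither mark, S100A9 at chr1:153357604-153357853 on the plus strand and FPR1 at chr19:51751879-51752128 on the minus strand.
TLR2: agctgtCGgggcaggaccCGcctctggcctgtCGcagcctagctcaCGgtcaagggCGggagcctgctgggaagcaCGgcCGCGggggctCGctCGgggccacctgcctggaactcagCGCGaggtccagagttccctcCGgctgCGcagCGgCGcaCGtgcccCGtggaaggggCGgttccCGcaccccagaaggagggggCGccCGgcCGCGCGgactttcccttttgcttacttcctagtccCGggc
KLF4: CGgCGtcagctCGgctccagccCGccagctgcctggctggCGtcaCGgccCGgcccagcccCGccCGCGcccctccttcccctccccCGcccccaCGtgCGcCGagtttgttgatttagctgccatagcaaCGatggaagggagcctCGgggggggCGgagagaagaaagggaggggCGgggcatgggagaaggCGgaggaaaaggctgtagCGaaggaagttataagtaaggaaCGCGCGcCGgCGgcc
CD33: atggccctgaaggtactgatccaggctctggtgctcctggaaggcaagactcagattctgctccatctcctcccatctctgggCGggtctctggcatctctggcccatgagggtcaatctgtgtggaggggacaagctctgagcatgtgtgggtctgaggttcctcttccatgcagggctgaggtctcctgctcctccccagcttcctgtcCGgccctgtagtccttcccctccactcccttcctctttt
FCGR2A: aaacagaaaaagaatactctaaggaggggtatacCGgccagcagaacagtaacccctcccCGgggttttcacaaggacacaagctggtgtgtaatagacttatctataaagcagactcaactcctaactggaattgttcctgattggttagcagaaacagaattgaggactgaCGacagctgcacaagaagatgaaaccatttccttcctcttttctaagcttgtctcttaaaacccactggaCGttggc
S100A9: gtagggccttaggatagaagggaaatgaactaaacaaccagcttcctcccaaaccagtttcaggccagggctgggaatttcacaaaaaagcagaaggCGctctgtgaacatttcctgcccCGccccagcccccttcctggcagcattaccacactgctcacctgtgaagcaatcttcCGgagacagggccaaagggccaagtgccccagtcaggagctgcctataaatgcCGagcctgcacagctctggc
FPR1: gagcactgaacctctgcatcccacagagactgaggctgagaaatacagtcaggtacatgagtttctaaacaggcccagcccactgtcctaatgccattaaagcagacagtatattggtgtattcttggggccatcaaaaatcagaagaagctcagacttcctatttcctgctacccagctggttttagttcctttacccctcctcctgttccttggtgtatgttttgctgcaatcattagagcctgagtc
In these bases TLR2 has 26 CpG and KLF4 25, against 2 in CD33, 4 in FCGR2A, 4 in S100A9 and 0 in FPR1.

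H3K4me3 was scarce at the effector genes. Under shControl 15 of 38 gene windows held an H3K4me3 peak, 39.5% (exact 95% interval 24.0 to 56.6), where 69.6% of all protein-coding genes did. Under shStau2 it was 17 of 38, 44.7% (28.6 to 61.7), against 75.1% of all. The 2 genes listed under shStau2 only were ITGAM and LYZ, beside 5.55% of all genes, and 0 members were listed under shControl only, beside 0.0451% of all. The shStau2 list is the longer one, 27577 peaks against 22280. With the shStau2 threshold raised in proportion to the genome-wide ratio, 0 of 38 members were listed under 1 hairpin only, against 1.17% of all genes under shStau2 only and 1.29% under shControl only. The 21 members without H3K4me3 in either list include all 3 calgranulins, the peroxidase gene MPO and the monocyte receptor genes CD14 and CSF1R.

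Much of the H3K4me3 that was listed lay away from the start of the member itself. At annotated starts, taken with 1 kb on each side, only 5 of 30 members had a peak, the same 5 under both hairpins (CD33, FCGR2A, CYBA, TLR2 and KLF4), where 64.3% of all genes did under shControl and 67.7% under shStau2. No member start was listed under 1 hairpin only, beside 3.51% of all genes under shStau2 only and 0.0885% under shControl only. Leaving out peaks within 1 kb of the end of another protein-coding gene kept 10 of 38 members under shControl and 11 under shStau2, against 54.1% and 59.9% of all genes. Of the 22 H3K4me3 peaks in member windows under shControl, 10 reached such an end, and of the 25 under shStau2, 9 did. All 22 overlapped a peak of the other list, beside 99.3% of the peaks in all gene windows, and 20 of the 25 under shStau2 did, 80.0% (59.3 to 93.2) beside 75.1%.

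**Figure D1:**
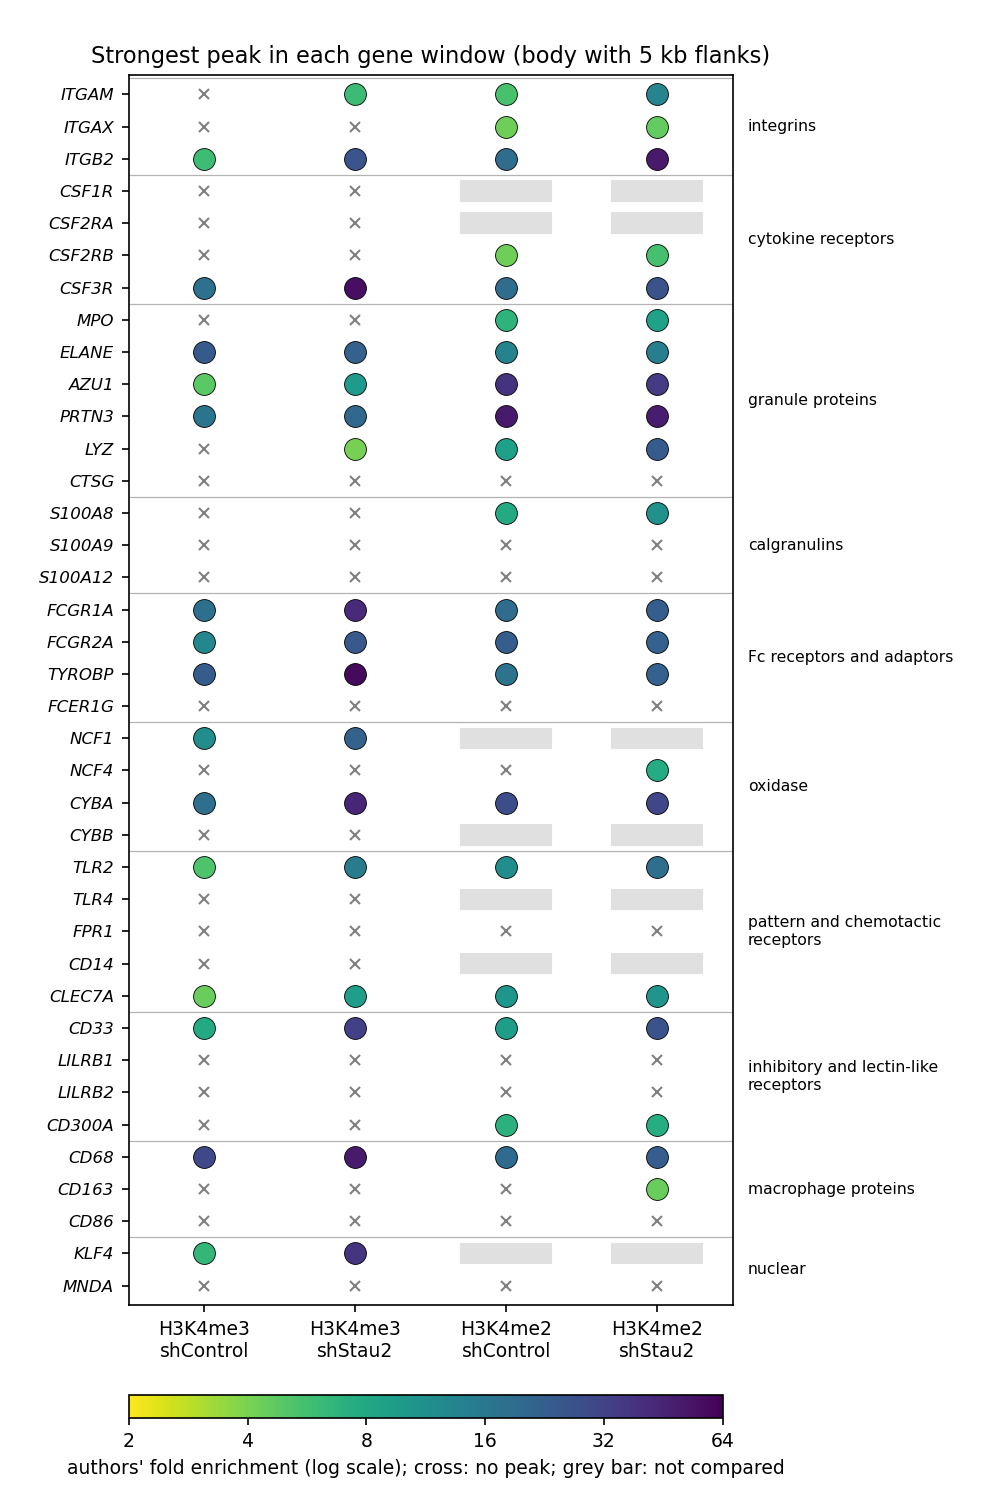
Authors' fold enrichment of the strongest peak in the window of each of the 38 genes (rows, by role) in the 4 peak lists (columns), on a logarithmic colour scale; a cross is no peak and a grey bar a gene outside the compared H3K4me2 region. H3K4me3 has filled points at 15 genes under shControl and 17 under shStau2, and 9 genes have crosses in all 4 lists.

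The members' promoters were mostly poor in CpG. The observed over expected CpG ratio of the promoter, taken from 250 bases before to 50 after the start, had a median of 0.26 over the 30 members and 0.76 over 15812 genes. Their median GC content was 53.2% against 62.7%. In the CpG-poor range, at or below 0.4, lay 25 of the 30 members and 25.5% of all promoters. There, 2 members (FCGR2A and CD33) carried H3K4me3 at the start, while 15.6% of the 4029 CpG-poor promoters did under shControl and 18.5% under shStau2. Above 0.6 lay CYBA, TLR2 and KLF4, and all 3 were marked, beside 85.0% and 88.3% of 10314 such promoters. Between these limits NCF1 and TLR4 were unmarked, beside 52.3% and 57.8% of 1469. H3K4me2 peaks lay at the start of 6 of 21 CpG-poor members under shControl and 7 under shStau2, beside 28.9% and 31.1% of such promoters, and at the start of both CpG-rich members in the compared region, beside 90.6% and 91.7%.

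**Figure D2:**
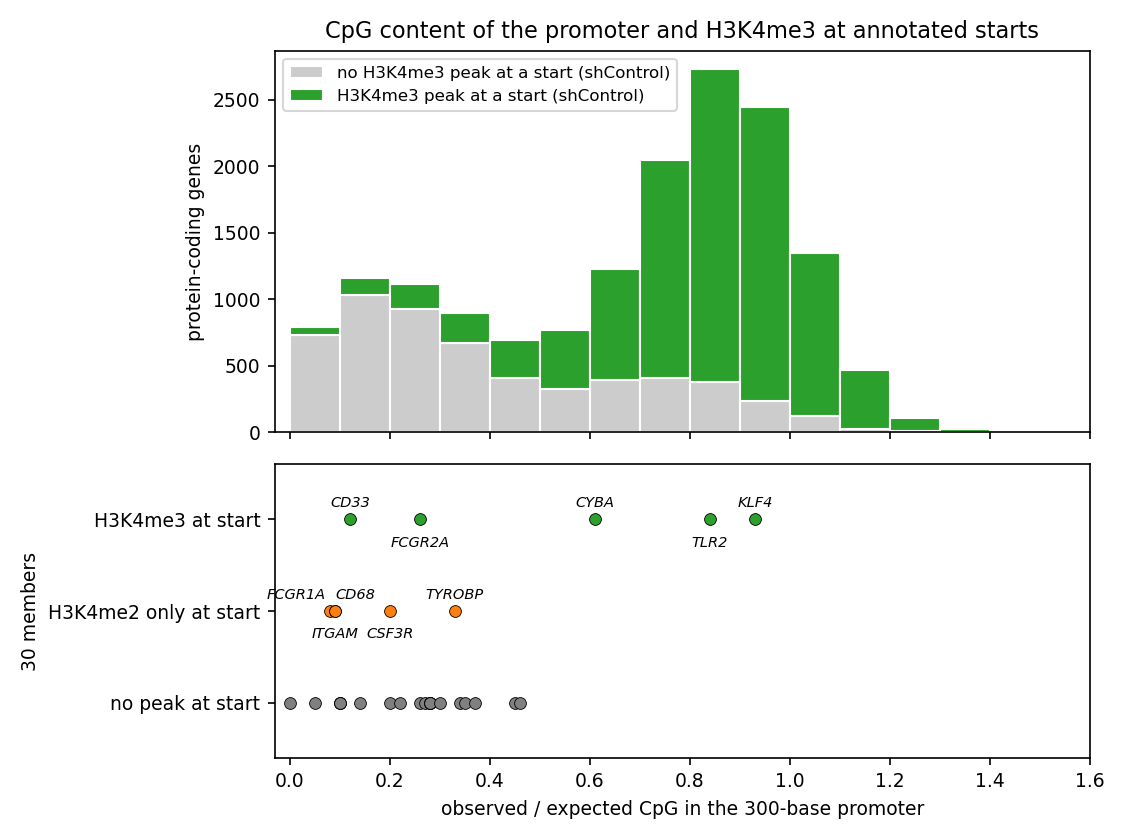
Upper panel, number of protein-coding genes (bars, stacked by H3K4me3 at an annotated start under shControl) against the observed over expected CpG ratio of the 300-base promoter. Lower panel, the 30 members with a promoter on the same axis, by the mark at their start under either hairpin; members outside the H3K4me2 region appear under H3K4me3 or no peak, and 25 of the 30 lie at or below 0.4.

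Among the integrins, which let phagocytes adhere and take up opsonised targets, ITGAM had peaks of both marks that were listed under shStau2 only. It encodes CD11b, the alpha chain of complement receptor 3, and lies on chromosome 16 at 31259975 to 31332877, on the plus strand. H3K4me3 was listed there only under shStau2, in 2 short peaks inside the gene, 24.5 kb from the start with a fold enrichment of 6.02 and a summit pileup of 15.14, and 42.68 kb from the start with 4.99 and 11.35. Both H3K4me3 peaks are below the raised threshold of 8.2. H3K4me2 was listed in ITGAM under both hairpins. At the first site shControl had a pair of weak H3K4me2 peaks of 3.4 and 3.9, and shStau2 a single one of 1350 bases and 13.4, with summit pileups of 19.39 and 11.49 against 34.18. At the second site shControl had none, and shStau2 had one of 364 bases with 10.2. At both positions the H3K4me3 peak of shStau2 lay within its H3K4me2 peak. Near the 3′ end the order was mixed on fold enrichment, with H3K4me2 of 4.92 and 5.49 under shControl at the sites where shStau2 had 6.16 and 4.34. Summit pileups there were 10.77 and 14.36 under shControl and 14.24 and 16.38 under shStau2, higher under shStau2 at both sites. Whether the inner sites lie in exons or introns was not analysed here.

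Of 23 members with a start in the compared region, ITGAM was the only one whose start carried H3K4me2 under 1 hairpin alone. Under shStau2, H3K4me2 peaks of 3.94 and 4.37 lay 0.2 and 0.6 kb after the start, and under shControl there was no H3K4me2 peak between the start and 23.98 kb. Over all genes 2.17% had a start listed with H3K4me2 under shStau2 only. Both start peaks are near the lower limit of the list, with summit pileups of 9.26 and 12.1. The ITGAM promoter at chr16:31259725-31259974 is poor in CpG, with a ratio of 0.09, and is shown with the PU.1 core motif GAGGAA in capitals.
ITGAM: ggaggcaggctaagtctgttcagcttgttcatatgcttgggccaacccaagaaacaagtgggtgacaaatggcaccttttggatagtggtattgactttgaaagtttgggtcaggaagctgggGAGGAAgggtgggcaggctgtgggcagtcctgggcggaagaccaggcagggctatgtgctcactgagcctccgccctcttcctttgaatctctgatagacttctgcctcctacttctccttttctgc
The 300-base window of ITGAM holds that motif 2 times, once in the bases printed. A match is a description of the sequence and not a binding site.

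ITGB2 encodes CD18, the beta chain shared by the leukocyte integrins. Its H3K4me3 lay in 1 peak beyond the higher-coordinate end of the gene on chromosome 21, between 45.89 and 47.16 kb from the lower end of a 42.86 kb gene under shStau2. That peak covered 534 bases with a fold enrichment of 5.83 under shControl and 1273 bases with 25.8 under shStau2, and its summit pileups were 28.17 and 71.14. H3K4me2 at the same place had a fold enrichment of 19.0 and 50.7 and pileups of 94.06 and 140.97. ITGB2 thus had the highest covered-base ratio of the members for H3K4me3, at 2.38. ITGAX, which encodes CD11c, had no H3K4me3, and weak H3K4me2 of at most 4.32 under shControl and 4.61 under shStau2. Its covered bases were 487 and 1171, but the difference of 684 came from peaks in the flanks, and within the gene body shStau2 had 4 bases fewer.

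Of the cytokine receptors, CSF3R, the receptor for granulocyte colony-stimulating factor, had H3K4me2 at its own start in both lists, 12.1 under shControl and 12.4 under shStau2. Its H3K4me3, 17.6 and 56.6, lay at the end of the neighbour MRPS15, about 18.7 kb from the CSF3R start. CSF2RB encodes the beta chain shared by the receptors for GM-CSF, interleukin 3 and interleukin 5 and had no H3K4me3. Its H3K4me2 covered 203 bases under shControl in a peak of 4.32 beyond the higher end of the gene. Under shStau2 it covered 1336 bases, in a peak of 5.58 at the same place and another of 4.72 at the lower end of the gene. This was the highest covered-base ratio of the members, 6.58, from the smallest covered length. CSF1R, the receptor for macrophage colony-stimulating factor, and CSF2RA, the alpha chain of the GM-CSF receptor, had no H3K4me3 under either hairpin.

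The granule proteins held the strongest H3K4me2 of the list under shControl. PRTN3 encodes proteinase 3, a serine protease of azurophil granules, and lies on chromosome 19 at 840999 to 848175 beside AZU1 and ELANE. An H3K4me2 peak inside PRTN3, from 2.07 to 3.85 kb after its start, had a fold enrichment of 50.8 under shControl and 49.0 under shStau2, at or above percentile 99.7 of its list in both. H3K4me3 lay in the same place with 16.8 and 20.0, and neither mark reached the annotated start of PRTN3. The site is thus strong and inside the gene in both libraries. The fold enrichment ratio of the H3K4me3 peak was 1.19 and that of its summit pileup 1.51, below the genome-wide 2.07 and 2.03.

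AZU1, which encodes the antimicrobial protein azurocidin, had its strongest H3K4me2 at the end of PLPPR3, 38.5 and 35.2, and a separate peak at the 3′ end of its own body with 13.3 and 15.7. Its H3K4me3, also at PLPPR3, was 4.84 and 9.71. ELANE encodes neutrophil elastase. Its H3K4me3, 24.5 under shControl and 22 under shStau2, lay at the neighbour CFD, and its H3K4me2 peaks of highest fold enrichment, 13.5 and 14.7, did too. A separate H3K4me2 peak between PRTN3 and ELANE, 6.37 and 11, is in the windows of both genes, as is another of 10.1 and 9.89 within PRTN3. ELANE and PRTN3 had the lowest H3K4me3 fold enrichment ratios of the members, 0.9 and 1.19.

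LYZ encodes lysozyme, which cleaves bacterial peptidoglycan. H3K4me3 was listed at its lower-coordinate end under shStau2 only, as peaks of 358 and 200 bases with 4.14 and 3.84 and summit pileups of 10.6 and 9.84. H3K4me2 lay over the same bases in both lists, 9.09 over 1670 bases under shControl and 11.7 over 2069 under shStau2. The shStau2 peak also overlaps a second shControl peak, of 4.31 over 579 bases, so these widths do not show a widening. Both H3K4me3 peaks are below the raised threshold of 8.2. The highest H3K4me2 value in the LYZ window under shStau2, 23.7, belongs to a peak at the neighbour YEATS4 that only reaches into the window. Its summit, at 69361001, lies outside the window. The shControl peak that it overlaps had 8.17 and ends before that summit, at 69360156, so these values are not from the same site. MPO, which encodes myeloperoxidase, had H3K4me2 alone, in a pair of peaks inside the gene of 6.56 and 6.8 under shControl and 6.16 and 8.74 under shStau2. They covered 1009 and 836 bases, the lowest ratio of the members at 0.83. CTSG, which encodes the granule protease cathepsin G, had neither mark.

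**Figure D3:**
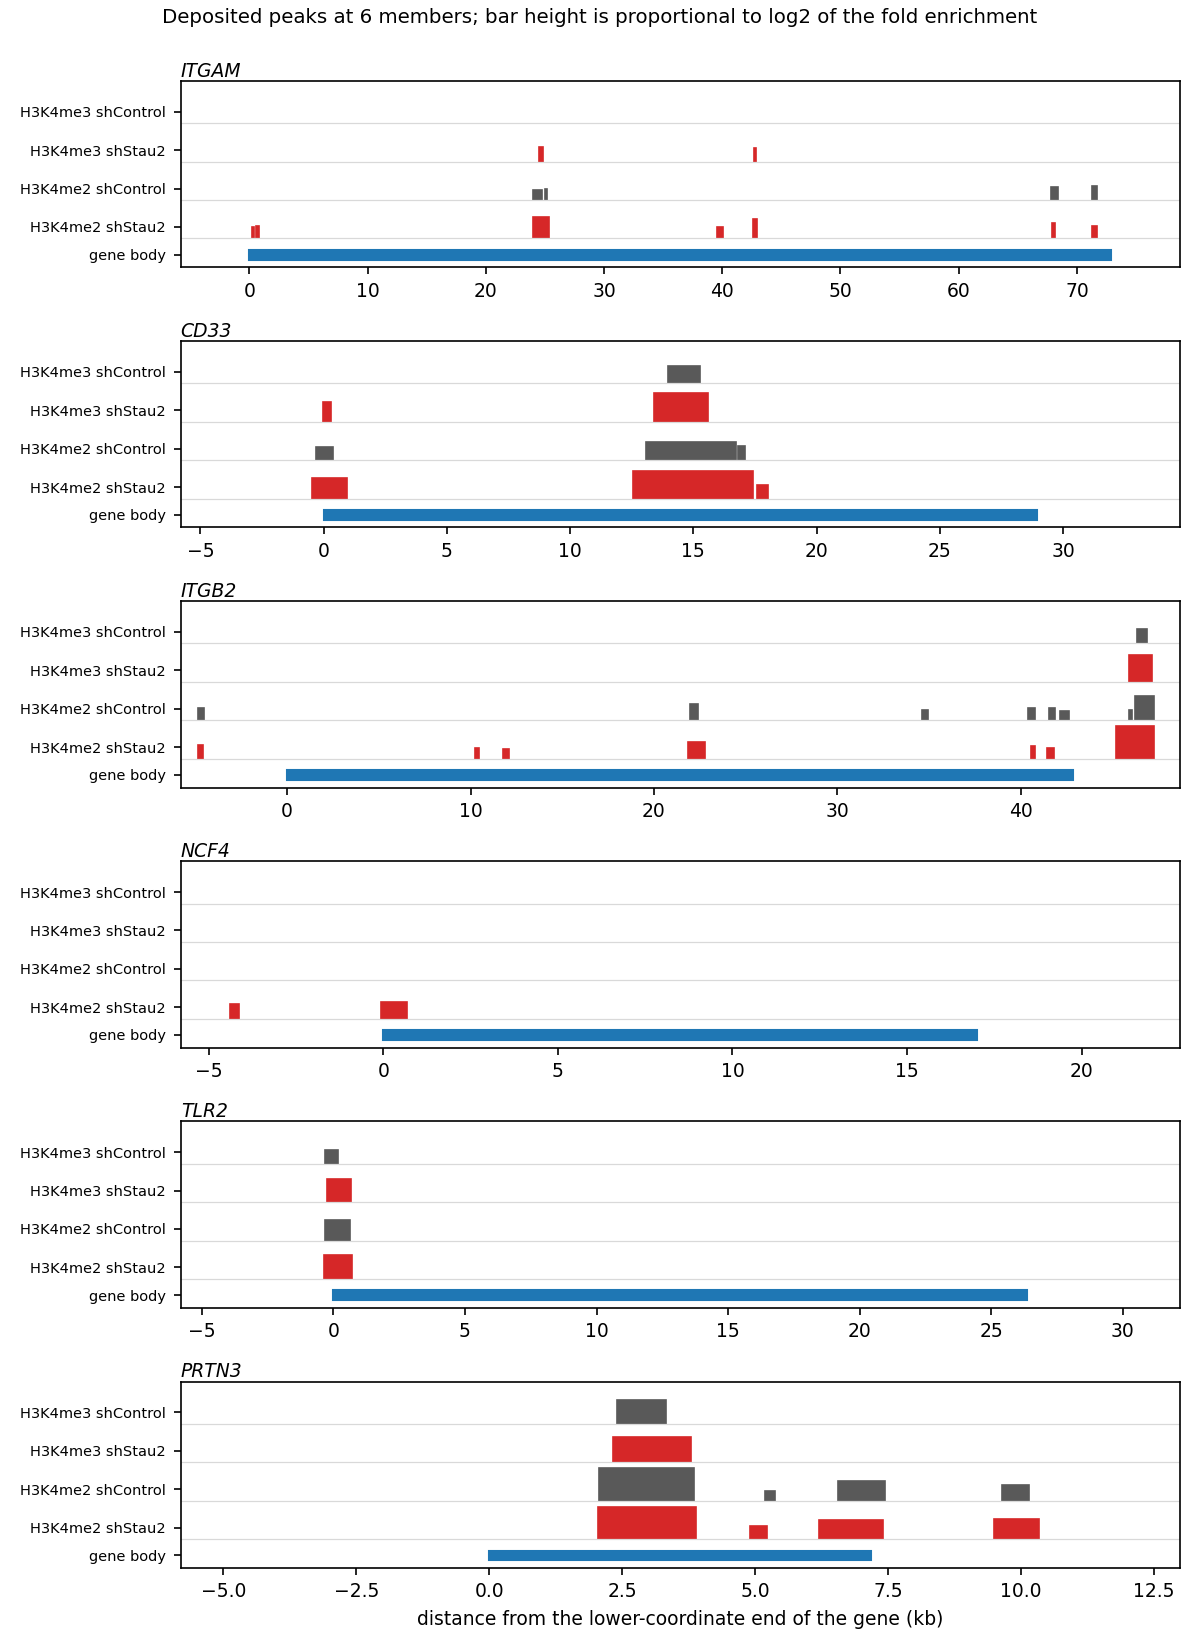
Peaks of the 4 lists at ITGAM, CD33, ITGB2, NCF4, TLR2 and PRTN3, as bars from peak start to peak end in kb from the lower-coordinate end of the gene (blue bar, gene body; axes differ in length), grey for shControl and red for shStau2, with height proportional to log2 of the authors' fold enrichment. Peaks under shStau2 only appear in the H3K4me3 row of ITGAM at 24.5 and 42.68 kb and in the H3K4me2 row of NCF4, while PRTN3 has the same inner peak in all 4 rows.

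The calgranulins S100A8, S100A9 and S100A12, calcium-binding proteins that neutrophils and monocytes hold in large amounts, had no H3K4me3. S100A8 had 1 H3K4me2 peak, 7.75 over 743 bases under shControl and 11.2 over 910 under shStau2. It lay about 16 kb upstream of the nearest annotated start of S100A8, within the 32.55 kb that the table gives the gene. S100A9 and S100A12 had neither mark under either hairpin.

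Among Fc receptors and adaptors, which link bound antibody to phagocytosis, FCGR2A had the most bases covered by either mark. It encodes CD32A, a low-affinity receptor for IgG. Its H3K4me2 covered 11808 bases under shControl and 11689 under shStau2, and the peak over its start had 22.9 and 22.2. H3K4me3 over the start had 12.9 and 24.7. Another H3K4me3 peak of 6.66 and 10.9 lay at the end of HSPA6. FCGR2A was among the members of lowest covered-base ratio for both marks, 1.18 for H3K4me3 and 0.99 for H3K4me2.

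FCGR1A encodes CD64, the high-affinity IgG receptor. Its strongest H3K4me3, 18.1 and 42.5, lay about 10 kb after its start at the end of LOC124904411, a gene that overlaps it together with the histone gene H2BC18. H3K4me2 at the FCGR1A start was weak, 4.16 under shControl and at most 4.98 under shStau2. The pseudogenes FCGR1BP and FCGR1CP are near-identical copies with H3K4me3 peaks of at most 24.8 and 21.1 under shControl and 51.3 and 30.5 under shStau2, and how the copies shared reads was not analysed here. TYROBP encodes the signalling adaptor DAP12. It had H3K4me2 at its start, 8.51 under shControl and at most 6.16 under shStau2, while its H3K4me3 lay in NFKBID (23.6 and 58.8) and at HCST (12.5 and 19.5). FCER1G, which encodes the common Fc receptor gamma chain, had neither mark.

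The phagocyte oxidase makes superoxide from a membrane pair, encoded by CYBA and CYBB, and cytosolic subunits that include those of NCF1 and NCF4. NCF4, which encodes p40phox, was 1 of the 2 members with H3K4me2 under shStau2 only. It lies on chromosome 22 at 36861006 to 36878015. Its lower end carried a peak of 731 bases with a fold enrichment of 7.59 and a pileup of 17.8, and a second of 252 bases with 5.87 began at -4.38 kb from that end. Both overlap the antisense transcript NCF4-AS1. No H3K4me2 peak was listed in the window under shControl, and no H3K4me3 under either hairpin. CYBA, which encodes p22phox, had both marks at its start in both lists, H3K4me3 of 18.3 and 44.4 and H3K4me2 of 28.7 and 30.6, in peaks that reach the end of MVD. NCF1, which encodes p47phox, had H3K4me3 near its higher end, 11.7 and 21.5. Its pseudogene copies NCF1B and NCF1C had at most 12.2 and 10.5 under shControl and 21.1 and 27.6 under shStau2, so values at NCF1 are uncertain. CYBB, which encodes gp91phox, had no H3K4me3.

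Of the pattern and chemotactic receptors, TLR2, a sensor of bacterial lipoproteins, was marked at its start and nowhere else in its window. H3K4me3 there covered 482 bases with a fold enrichment of 5.26 under shControl and 927 bases with 15.4 under shStau2, and the summit pileups were 11.64 and 37.09. H3K4me2 covered 944 and 1084 bases with 11.8 and 18.2. TLR2 was the 1 member of 15 whose H3K4me3 pileup ratio, 3.19, was 1.5 times the genome-wide pileup ratio of 2.03 or more, a size met by 1.25% of all genes. It passed narrowly, at 1.57 times, and its shControl peak was weak, at percentile 16.8 of the fold enrichments in its list. CLEC7A encodes dectin-1, a receptor for fungal beta-glucan. It carried peaks just below its lower end, H3K4me3 of 4.42 and 9.27 and H3K4me2 of 10.3 and 10.5. TLR4, which senses lipopolysaccharide, FPR1, the receptor for formylated peptides, and CD14, a co-receptor for lipopolysaccharide, had no H3K4me3, and FPR1 no H3K4me2 either.

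CD33, an inhibitory sialic acid-binding receptor of myeloid cells, was the inhibitory receptor with H3K4me3. Its annotated start lies at 51225080 on chromosome 19, inside a gene record that begins at 51211076. At the start, H3K4me3 covered 1271 bases with a fold enrichment of 7.75 and a pileup of 30.01 under shControl, and 2175 bases with 33.1 and 80.98 under shStau2. H3K4me2 around it had 9.38 over 3636 bases and 26.4 over 4863, with pileups of 55.28 and 78.32. That shStau2 peak also overlaps another shControl peak, of 5.46 over 295 bases, so these widths are not of like peaks. A second site at the lower end of the record, with its H3K4me3 summit at -13.89 kb from the start, had H3K4me2 of 4.88 under shControl and 12.2 under shStau2, where the H3K4me3 peak of the shStau2 list lies. That end overlaps the pseudogene SIGLEC22P. CD33 was the member with the highest fold enrichment ratio for H3K4me2, at 2.82. CD300A, another inhibitory receptor, had H3K4me2 in its flank only, 7.01 and 7.45. LILRB1 and LILRB2, inhibitory receptors for MHC class I, had neither mark.

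Among the macrophage proteins, CD68, a lysosomal glycoprotein used to stain macrophages, had H3K4me2 over its start and short body with 13 under shControl and 11 under shStau2. Those peaks also reach within 1 kb of the end of EIF4A1, and the strongest H3K4me2 in the window, 19.3 and 23.4, lay at MPDU1. The H3K4me3 in the CD68 window belonged to neighbours, 30.3 and 50.3 at the ends of SENP3 and EIF4A1 and 14.2 and 30.4 at MPDU1. CD163, the haemoglobin scavenger receptor, was the other member with H3K4me2 under shStau2 only. That call is a single 200-base peak with a fold enrichment of 4.43 and a pileup of 9.97, 32.01 kb after the annotated start. CD86, a co-stimulatory ligand, had neither mark. Of the nuclear proteins, KLF4, a zinc finger factor that promotes monocyte differentiation, had H3K4me3 at its start of 6.49 and 37.7, with pileups of 37.97 and 92.34. MNDA, an interferon-inducible nuclear antigen, had neither mark.

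H3K4me2 was listed at more of the effector genes than H3K4me3, yet still below the share of all genes. Under shControl 20 of 31 members had a peak, 64.5% (45.4 to 80.8), where 84.5% of all genes did. Under shStau2 it was 22 of 31, 71.0% (52.0 to 85.8), against 86.5%. NCF4 and CD163 were the 2 members listed under shStau2 only, beside 2.57% of all genes, and 0 were listed under shControl only, beside 0.591%. Both were listed under shStau2 only at the raised threshold too, beside 2.13% of all genes, with 1.06% under shControl only. At annotated starts the count was 8 of 23 under shControl and 9 under shStau2, against 72.7% and 74.3% of all genes, and 0 starts were listed under shControl only, beside 0.572%. With peaks within 1 kb of the ends of other genes left out, 19 of 31 members kept one under shControl and 20 under shStau2, beside 76% and 78.2% of all genes. Counts of 1 or 2 members carry wide intervals, 0.8 to 21.4% for 2 of 31, which contain the background.

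Setting both marks together, every H3K4me3 peak in these 31 windows overlapped an H3K4me2 peak of the same hairpin, 18 of 18 under shControl and 21 of 21 under shStau2. Over all gene windows 99.2% and 98.4% did. H3K4me2 without H3K4me3 was found at 7 of 31 members under each hairpin, 22.6% (9.6 to 41.1), where 13.7% of all genes had that state under shControl and 10.8% under shStau2. Under shControl the 7 were ITGAM, ITGAX, CSF2RB, MPO, LYZ, S100A8 and CD300A. Under shStau2 ITGAM and LYZ had both marks, and NCF4 and CD163 took their place. Both marks were present at 13 and 15 members, against 70.8% and 75.7% of all genes, and neither at 11 and 9, against 15.4% and 13.3%. The 9 without either mark in any list were CD86, CTSG, S100A9, S100A12, MNDA, FPR1, LILRB1, LILRB2 and FCER1G. No member had H3K4me3 without H3K4me2, beside 0.0883% and 0.197% of all genes.

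**Figure D4:**
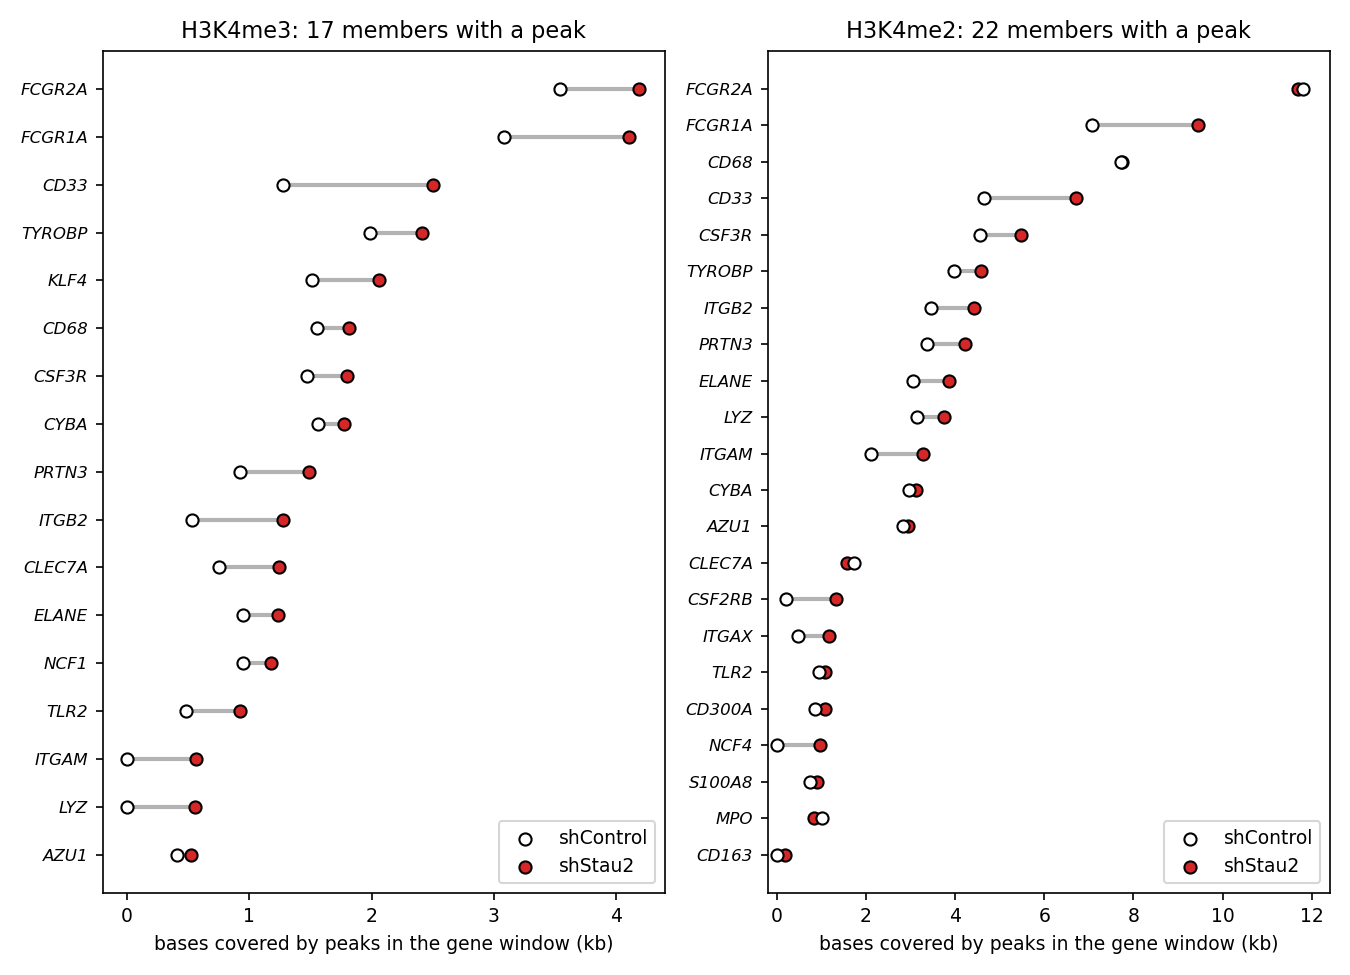
Bases covered by peaks in the gene window (x axis, kb) under shControl (open points) and shStau2 (red points) for the 17 members with H3K4me3 (left) and the 22 with H3K4me2 (right) in either list, ordered by the shStau2 value. All H3K4me3 pairs have the red point to the right, and for H3K4me2 FCGR2A, CLEC7A and MPO have it to the left.

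The length of marked chromatin followed the whole lists. Of the 15 members with H3K4me3 in both, 15 had more covered bases under shStau2, as had 98.3% of all such genes, and the median ratio was 1.3 against 1.24. In 5 of 15 (ITGB2, CD33, PRTN3, TLR2 and CLEC7A) the ratio was 1.5 or more, beside 18.4% of all, and in 0 was it as far the other way, beside 0.0216%. The lowest ratios were those of CYBA at 1.14, CD68 at 1.17 and FCGR2A at 1.18. For H3K4me2, 17 of 20 had more covered bases under shStau2, beside 80.1%, with a median ratio of 1.21 against 1.1. The ratio was 1.5 or more in ITGAM, ITGAX and CSF2RB, 3 of 20, beside 7.9% of all, and in 0 members as far the other way, beside 0.987%. The member windows also held less H3K4me3, with a median of 1271 covered bases under shControl where all such genes had 2042. The median fold enrichment of the strongest peak was lower too, 12.9 against 22.5. These window values include peaks at the ends of other genes. The members are also shorter genes, with a median length of 17.1 kb against 24.2 kb, so their windows are smaller.

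The height of the strongest peak depended on the scale used. The median H3K4me3 fold enrichment ratio was 2.35 over the 15 members and 2.01 over all genes. KLF4 at 5.81, ITGB2 at 4.42, CD33 at 4.27 and CSF3R at 3.22 had ratios at least 1.5 times the genome-wide one, 4 of 15 beside 7.8% of all genes, and ELANE and PRTN3 were as far below, 2 of 15 beside 9.84%. On summit pileup those 4 ratios were 2.43, 2.53, 2.7 and 1.94, and none of the 4 passed. The pileup ratio of ELANE was 1.73 and that of PRTN3 1.51, and 0 of 15 members were as far below the genome-wide ratio on this scale, beside 1.51% of all genes. The value of pileup plus 1 over fold enrichment, which is the local background plus 1, was 6.0 under shControl and 2.48 under shStau2 at KLF4, 5.0 and 2.8 at ITGB2, 4.0 and 2.48 at CD33, and 5.0 and 3.0 at CSF3R. At ELANE it was 2.62 and 5.0. Its median over matched peaks was 3.0 in both lists. By the definition of fold enrichment, its ratio is the ratio of pileup plus 1 divided by the ratio of these background values. Why the local background differed between the lists at these genes was not tested.

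For H3K4me2 the fold enrichment ratio was at least 1.5 times the genome-wide one in CD33 (2.82), ITGB2 (2.67), LYZ (2.61) and ITGAM (2.45), 4 of 20 beside 8.7% of all genes, and as far below in 0, beside 5.6%. On pileup, ITGAM at 2.38 and LYZ at 2.77 passed, 2 of 20 beside 3.48%, and 0 were as far below, beside 1.88%. CD33 and ITGB2, at 1.42 and 1.5, did not. For ITGAM and LYZ the strongest peak was not the same site in both lists, so their ratios do not compare like sites. At ITGAM the shStau2 pileup of 34.18 lay 24.52 kb after the start, where shControl peaks had 19.39 and 11.49. The shControl pileup of 14.36 used in the ratio lay at 71.38 kb. At LYZ the shStau2 summit lay outside the window, at YEATS4. The lowest H3K4me2 fold enrichment ratios, at AZU1 (0.91), PRTN3 (0.96) and FCGR2A (0.97), belonged to windows strongly marked under both hairpins. The AZU1 ratio is that of the peak at the end of PLPPR3, while the peak in the AZU1 body had 13.3 under shControl and 15.7 under shStau2.

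**Figure D5:**
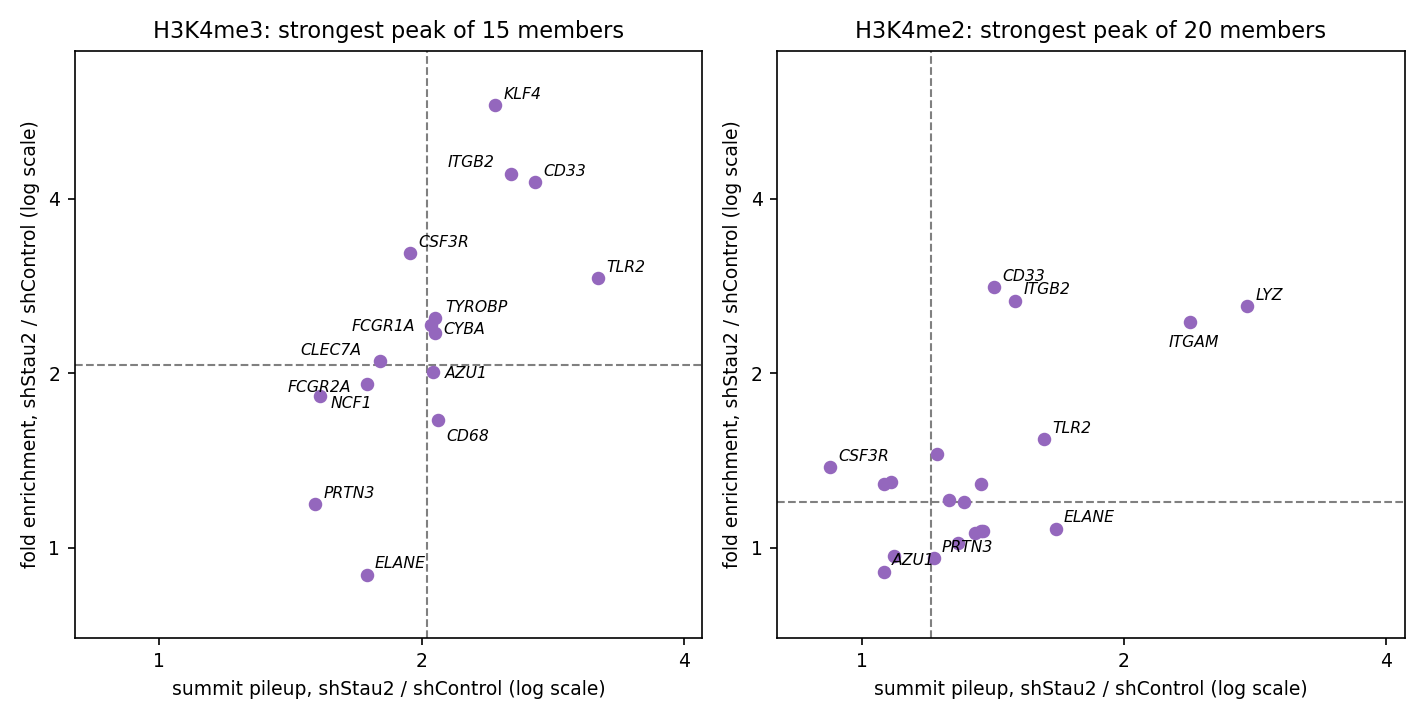
Ratio of the authors' fold enrichment (y axis) against ratio of the summit pileup (x axis), shStau2 over shControl, both on log scales, for the strongest peak of the 15 members with H3K4me3 and the 20 with H3K4me2 in both lists; dashed lines are the medians' ratios over matched peaks (2.07 and 2.03, 1.2 and 1.2). KLF4, ITGB2 and CD33 stand high on the y axis but lie between 2.43 and 2.7 on the x axis, and TLR2 is farthest right for H3K4me3 at 3.19.

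Motifs of blood transcription factors were counted on both strands of the 300-base promoters. The PU.1 core GAGGAA was found in 20 of the 30 member promoters (66.7%), while 27.7% of all 15812 promoters and 34.1% of the 4029 CpG-poor ones hold it. In the CpG-poor members alone it was in 17 of 25. The RUNX core TGTGGT was in 8 of 30, all CpG-poor, beside 11% of all and 17.9% of CpG-poor promoters. The C/EBP motif TTGCNNAA was in 7 of 30, all CpG-poor, beside 8.4% and 13.2%. The GATA motif AGATAA was in 3 of 30, of which 2 CpG-poor, beside 7.6% and 16.8%. Of the 5 members with H3K4me3 at the start, CD33, FCGR2A and KLF4 hold the PU.1 core, and CYBA and TLR2 do not. None of these motifs contains another.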

How the data were processed

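ChIP-seq peak lists for H3K4me2 and H3K4me3 in K562 with shControl or shStau2 were used, 1 library per mark and hairpin, grouped by the sample titles. Alignment was to hg38 with Bowtie2, per the submitters' processing notes, and the Bowtie2 version was not given in the sources used here. Per the file headers, MACS2 2.1.2 called narrow peaks in each library against the input of its hairpin at a q-value of 0.05, with fragments of 200 bases and tags of 76 bases, the larger data set scaled to the smaller. The deposited lists give each peak's width, the signal as summit pileup, the fold enrichment as a ratio to local background, and the −log10 of p and q values.

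Peaks were joined to RefSeq genes of GRCh38.p14 by an overlap of 1 base or more with the gene body and 5 kb flanks. Annotated starts came from the promoter table, which holds 30 of the 38 members; CLEC7A, LYZ, ITGAX, MPO, ELANE, ITGB2, NCF4 and CSF2RB have window values only. Covered bases are the bases of the window that peaks cover. A ratio is marked off at 1.5 times. The raised threshold leaves out the lowest 5% of shControl fold enrichments (3.97 for H3K4me3, 3.3 for H3K4me2) and multiplies that limit by the ratio of matched peaks for shStau2 (8.2 and 3.97). Shares carry exact Clopper-Pearson 95% intervals, which cover counting error only; depth was from 26221869 to 30744332 tags per ChIP library. Without replicates no test between hairpins was run.

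The members and lists were chosen with earlier results of these data known. Values in every library are given for members with a peak in 1 list only, with a peak at the start, with the 3 highest or 3 lowest ratios per mark, or with peaks within 1 kb of another protein-coding gene's end; others are given by counts and ranges, and a few were named after their values were seen. The values of 1 gene of the comparison list are not reported here. Overlap counting was tested on simulated data. Alternatives were windows of other sizes, starts only, stronger peaks, equal numbers of peaks, and peaks near other genes left out; summit pileup was added after the data were seen. Scripts ran under Python 3.11.15 with pandas 2.3.3, numpy 2.4.6, matplotlib 3.10.9 and scipy 1.17.1.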

Additional observations from a re-analysis of the deposited data

Results flagged for a closer look

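The shControl H3K4me2 list goes on past the region compared here and holds peaks at 2 members on chromosome 5 that entered no comparison. In the window of CD14 lies a peak with a fold enrichment of 9.58, over the neighbour TMCO6. In the window of CSF1R lie peaks of 4.02 over HMGXB3, 3.92 in the gene body and 7.61 over PDGFRB. The shStau2 list ends before chromosome 5, so no value can be set beside them.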

How the results depend on the processing

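Of the counts and median ratios recomputed under alternatives, 107 stayed within 1.5 times of the value reported and 15 did not. This compares numbers and not the genes behind them. With a −log10 q of 10 or more, H3K4me3 under shStau2 only was at AZU1, TLR2 and CLEC7A, and H3K4me2 at ITGAM, NCF4 and CD300A. With a fold enrichment of 5 or more these were ITGAM, AZU1 and CLEC7A, and CSF2RB and NCF4. LYZ and CD163 were thus in neither setting. Members with H3K4me3 under shControl numbered 8 without flanks and 5 at annotated starts. Under shStau2 they numbered 10 without flanks, 5 at starts and 11 with peaks near ends of other genes left out. H3K4me3 under shStau2 only was found at 0 members with the raised threshold, 1 (ITGAM) with equal numbers of peaks, 1 (ITGAM) with flanks of 10 kb and 0 at starts. H3K4me2 under shStau2 only was found at 1 member (FPR1) with flanks of 10 kb and 1 (ITGAM) at starts, and H3K4me2 at starts at 8 members under shControl and 9 under shStau2. With peaks near ends of other genes left out, FCGR1A for H3K4me3 and CD68 for H3K4me2 were each the 1 member listed under shControl only. The shControl peaks that remained there, of 3.53 and 3.7, each overlapped a longer shStau2 peak. Those shStau2 peaks were left out because they reach LOC124904411 and EIF4A1. The FCGR1A peak lies wholly inside its shStau2 peak, so that listing is not a loss of the mark. The CD68 peak, from 7575379 to 7575584, overlaps only the edge of its shStau2 peak, which ends at 7575389. Whether the mark differed over the rest of that CD68 peak was not tested. The difference in covered bases, shStau2 minus shControl, turned its sign at 8 members. For H3K4me3 it turned to -137 at AZU1 with flanks of 10 kb, against the 15 of 15 reported, and to -483 at FCGR1A with peaks near ends of other genes left out. For H3K4me2 without flanks it turned to -4 at ITGAX, -100 at LYZ, -148 at CD68 and 122 at FCGR2A. With flanks of 1 kb it was -254 at ITGAX, -269 at CD68 and 89 at FCGR2A, and with flanks of 10 kb -204 at AZU1 and 15 at FCGR2A. With a −log10 q of 10 or more it was -440 at TYROBP and 1261 at FCGR2A, and with a fold enrichment of 5 or more 410 at FCGR2A. With peaks kept only if mostly inside the window it was -15 at CD68. With peaks near ends of other genes left out it was -206 at CD68, -4 at PRTN3 and 60 at FCGR2A. With other flanks the windows hold fewer or more bases by construction, and the other alternatives leave peaks out of the same windows. Otherwise the cause was not tested. With summit pileup, added after the data were seen, the median ratio of members was 2.06 for H3K4me3 and 1.33 for H3K4me2. No paired analysis was possible because each mark and hairpin has 1 library. The effect of depth on weak peaks, such as those of LYZ and CD163, was not tested.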

Other observations

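Of 40 other myeloid genes, 12 had H3K4me3 in their window under shControl and 16 under shStau2, beside 69.6% and 75.1% of all protein-coding genes. Listing under shStau2 only was found at 5.55% of all genes. Those listed under shStau2 only included FCGR2B, an inhibitory IgG receptor, at a fold enrichment of 6.03, CXCR2, a chemokine receptor of neutrophils, at 5.6, and CD300LF, a myeloid surface receptor, at 3.77. These values lie below the raised H3K4me3 threshold of 8.2 for shStau2. H3K4me2 was listed at 28 of 37 such genes under shControl and 29 under shStau2, beside 84.5% and 86.5% of all genes. CCR1 at 4.13 and TLR1 at 5.87 were listed under shStau2 only, beside 2.57% of all genes, and FPR2 at 4.4 under shControl only, beside 0.591%. Among 6 lymphoid markers, H3K4me3 was listed at 2 under both hairpins and H3K4me2 at 5 and 6, with MS4A1 at 3.57 under shStau2 only.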
